A study of Rattus norvegicus with 16 samples.

Results

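The genes of myelin and of the cells that make it followed here were Mbp, Mobp, Mal, Mog, Mag, Cnp, Cldn11, Olig1 and Olig2, measured on 16 single-colour Agilent arrays of rat hippocampus. They were taken by gene name from the scanner files, and made up 9 of the 26583 gene names on the array, with 14 probes of the 30367. Each array held the RNA of the microdissected hippocampus of 1 adult male Sprague-Dawley rat, 24 h after surgery or the equivalent time. Naive rats (n = 3) had neither injury nor treatment, Sham rats (n = 2) were anesthetized and prepared but not injured, and TBI rats (n = 3) received severe parasagittal fluid percussion, a pressure pulse applied to the exposed dura. The other groups received the same injury and a drug. TBI+PMI rats (n = 3) were given PMI by gavage, TBI+JM6 rats (n = 3) JM6 by gavage, and TBI+E33 rats (n = 2) E33, the label of the estradiol group, by injection. The arrays do not separate the injured from the uninjured side, and in whole tissue fewer oligodendrocytes and less RNA per oligodendrocyte cannot be told apart.

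Oligodendrocytes wrap axons of the central nervous system in compacted membrane, which lets action potentials jump between nodes. Mbp and Mobp are basic proteins that hold the cytoplasmic faces of compact myelin together, and Mal is a small membrane protein that sorts cargo to the myelin sheath. Mog and Mag stand on the sheath surface, Mog on its outermost layer and Mag on the layer facing the axon. Cnp is an enzyme of the uncompacted cytoplasmic channels, and Cldn11 forms the tight junctions between the layers of the sheath. Olig1 and Olig2 are the transcription factors of the lineage, and Olig2 is also made in precursor cells.

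The groups were not spread evenly over the slides. The first of the 4 slides carried Naive 1, Naive 2 and both Sham arrays, and the second carried Naive 3 and the 3 TBI arrays. The other 2 slides carried only arrays of drug-treated rats and were scanned in another session. TBI and Sham therefore shared no slide, and a drug effect and a session effect cannot be told apart in any comparison of a drug group with TBI. Between 16282 and 18245 probes were above background on the 8 arrays of the first session and between 20259 and 24984 on the 8 of the second.

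Signal is given as log2 of the spot intensity over a reference level of the same array, the 75th percentile of what lay above background there. A value of 0 is that reference level, and a step of 1 is a doubling. Levels of different probes were compared only to choose 1 probe per gene, since probes differ in their brightness per molecule. Of the 14 probes, 13 were above background on 16 of 16 arrays and none was flagged as saturated. Each gene was represented by its brightest probe, the one with the highest mean signal over all 16 arrays, drug groups included. All 9 genes were thus detected in every rat. The brightest probes lie on rn4 at chr18:79057264-79057323 for Mbp, chr3:115167515-115167574 for Mal, chr20:1611776-1611835 for Mog, chr1:85954601-85954660 for Mag, chr11:31246213-31246272 for Olig1 and chr11:31208654-31208713 for Olig2, and those of the other genes follow with their sequences.

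The 4 of the 14 probes that were called lower in TBI than in Sham rats, at an adjusted p explained below, are shown here, with G and C in capitals, because base composition returns below. All are 60 bases long and have at least 1 reading frame without a stop codon, and positions are on rn4. The Mobp probe lies at chr8:125135770-125135829 on the plus strand, the Cnp probe at chr10:89524880-89524939 on the plus strand, the Cldn11 probe at chr2:116627458-116627517 on the minus strand and a second Olig2 probe at chr11:31206731-31206790 on the plus strand.
Mobp: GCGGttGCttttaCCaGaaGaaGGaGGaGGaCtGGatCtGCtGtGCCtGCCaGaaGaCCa
Cnp: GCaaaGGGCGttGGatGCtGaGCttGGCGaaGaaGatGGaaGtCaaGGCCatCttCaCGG
Cldn11: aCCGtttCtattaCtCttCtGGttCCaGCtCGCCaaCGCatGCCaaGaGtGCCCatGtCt
Olig2: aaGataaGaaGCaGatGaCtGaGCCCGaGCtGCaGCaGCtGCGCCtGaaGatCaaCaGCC

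Signal of 3 myelin genes, Mobp, Cnp and Cldn11, fell in TBI relative to Sham rats, by 2.09-fold to 3.87-fold, and 2 of these, Mobp and Cldn11, were higher in Sham than in Naive rats. A gene was called at a limma adjusted p under 0.05 over all probes tested. The means of all 9 genes were lower in TBI than in Sham. Of all probes tested, 6.49% were called lower and 2.93% higher in that comparison. The arrays of TBI and Sham did not overlap for 5 of the 9 genes, against 24.3% of all probes that were lower without overlap. The median difference of the 9 genes was -0.75, and that of all probes -0.03. These calls rest on a spread shared by all 6 groups and on arrays of different slides. With the slide as a fixed block none of the 3 was called (limma adjusted p = 0.81, 0.803 and 0.844), nor was any with the TBI and Sham arrays alone (0.207, 0.175 and 0.209). Of 22799 probes, only 28 and 5 were called lower in these fits, so the missing calls say little about the 3 genes. The slide block links TBI and Sham only through the Naive arrays.

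Mobp differed most. Its signal was 1.40, 1.49 and 1.15 in the Naive rats, 3.102 and 3.103 in the Sham rats and 2.35, 0.62 and 0.49 in the TBI rats. The Sham arrays were above every Naive and TBI array, and 1 TBI rat stood far above the other two. The TBI minus Sham difference was -1.95 (SE 0.42, limma adjusted p = 0.0166), a 3.87-fold lower signal. The Sham minus Naive difference was 1.75 (SE 0.42, limma adjusted p = 0.0238), a 3.37-fold higher signal.

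Cnp read 2.22, 2.06 and 1.90 in Naive, 2.67 and 2.92 in Sham and 1.96, 1.55 and 1.03 in TBI rats. Both Sham arrays were the highest, and TBI 1 fell within the Naive range. The TBI minus Sham difference was -1.28 (SE 0.24, limma adjusted p = 0.0120), and the Sham minus Naive difference of 0.74 did not pass (limma adjusted p = 0.0859).

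Cldn11 read 0.47, 0.44 and 0.04 in Naive, 1.302 and 1.298 in Sham and 0.80, -0.08 and -0.02 in TBI rats. Here too the Sham arrays were above all Naive and TBI arrays, and TBI 1 was above every Naive array. The difference was -1.06 for TBI minus Sham (SE 0.28, limma adjusted p = 0.0326) and 0.99 for Sham minus Naive (SE 0.28, limma adjusted p = 0.0455).

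Mal had the second largest difference but also the widest spread. It read 1.83, 2.05 and 1.64 in Naive, 2.55 and 2.17 in Sham and 2.03, -0.04 and 0.33 in TBI rats. TBI 1 lay in the Naive range and the other TBI arrays lay below every array of the study. The TBI minus Sham difference of -1.59 (SE 0.47) missed the threshold at a limma adjusted p = 0.0516.

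The surface proteins had smaller differences. Mog read 2.49, 2.25 and 2.01 in Naive, 2.39 and 2.78 in Sham and 2.14, 1.78 and 1.57 in TBI rats. Every Sham array was above every TBI array, with a TBI minus Sham difference of -0.75 (SE 0.25, limma adjusted p = 0.0753). Mag read 2.35, 2.19 and 1.79 in Naive, 2.40 and 2.86 in Sham and 2.55, 1.85 and 1.53 in TBI rats. TBI and Sham overlapped for Mag, and the difference of -0.65 (SE 0.32) had a limma adjusted p = 0.216.

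Mbp and the transcription factors differed least. Mbp read 5.65, 6.37 and 5.85 in Naive, 5.74 and 5.85 in Sham and 6.17, 5.81 and 5.26 in TBI rats, so that the 3 groups overlapped. Its TBI minus Sham difference was -0.05, with a 95% interval from -0.64 to 0.55. Olig1 read 1.52, 1.65 and 1.33 in Naive, 1.72 and 1.94 in Sham and 1.89, 1.503 and 1.46 in TBI rats. The groups overlapped between TBI and Sham, and the difference was -0.21 (95% interval -0.71 to 0.28). Olig2, by its brightest probe, read -1.065, -0.63 and -0.94 in Naive, -0.99 and -0.56 in Sham and -0.81, -0.89 and -1.21 in TBI rats. Its difference was -0.19 (95% interval -0.64 to 0.26).

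**Figure D1:**
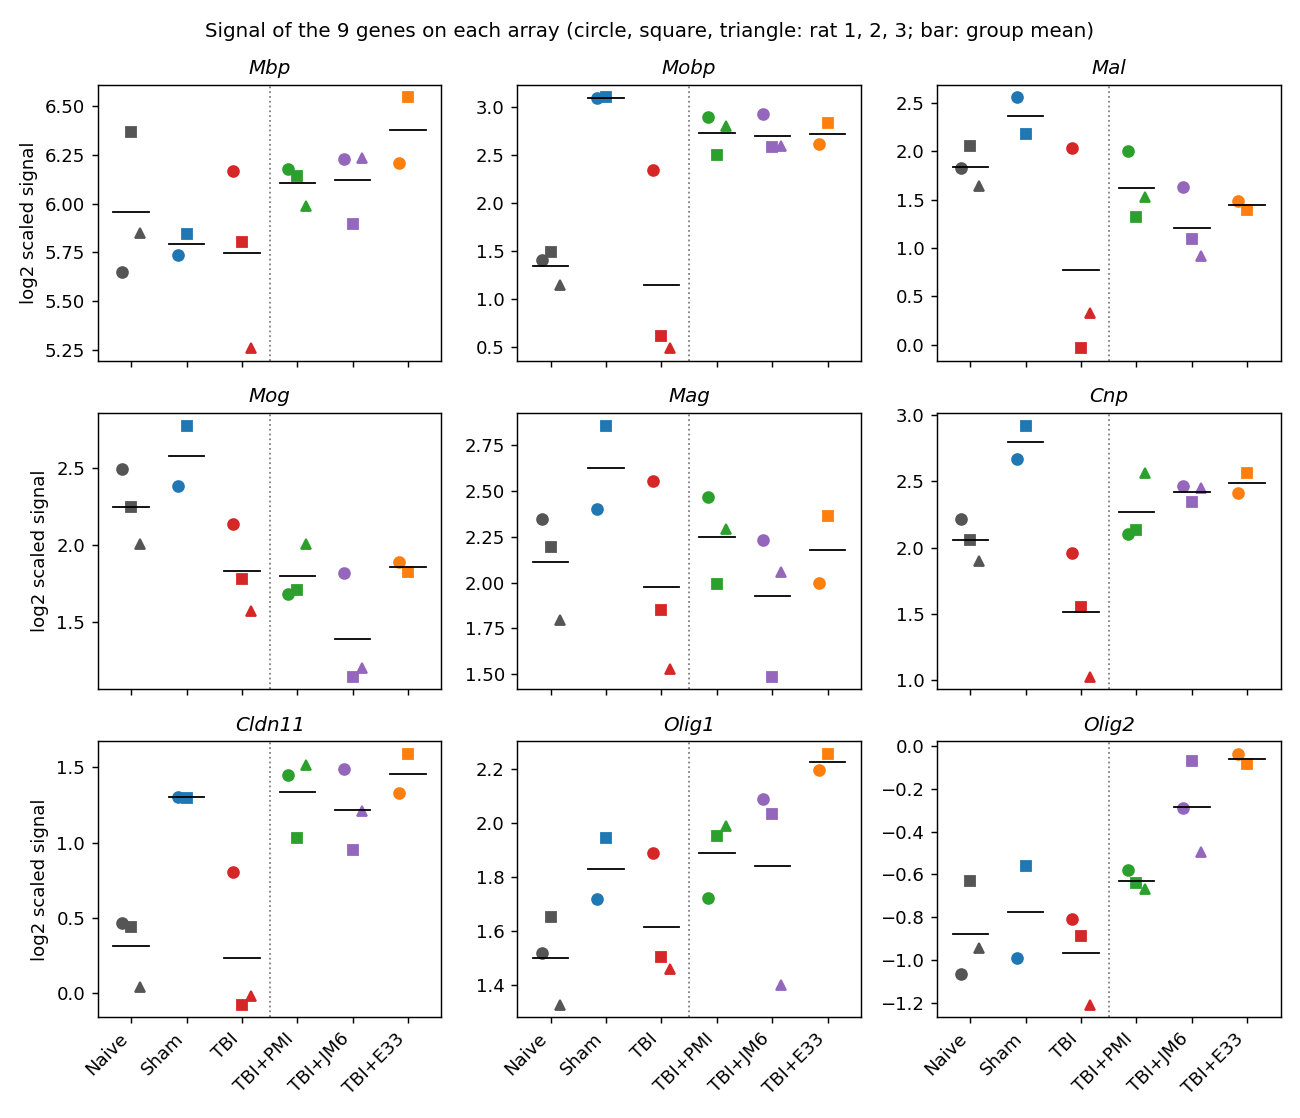
Log2 scaled signal (vertical axis) of the 9 genes on each of the 16 arrays, by group (horizontal axis), with circles, squares and triangles for rats 1, 2 and 3, a bar for the group mean and a dotted line between the 2 scan sessions. For Mobp the Sham arrays sit at 3.102 and 3.103 and the TBI arrays at 2.35, 0.62 and 0.49, while for Mbp the Naive, Sham and TBI arrays overlap.

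Sham and Naive rats were both uninjured, yet 8 of the 9 genes were higher in Sham, and Mobp and Cldn11 rose by the test. Of all probes, 6.57% were called higher and 1.52% lower in Sham vs Naive. For 6 genes the Sham arrays were all above the Naive arrays, against 25.1% of all probes that were higher without overlap. The median difference of the 9 genes was 0.52 and that of all probes 0.06. On the first slide alone, which held both Sham arrays and 2 Naive arrays, the median difference of the 9 genes was 0.36, with Mobp at 1.65 and Cldn11 at 0.85. With the slide as a fixed block, fitted to the 8 arrays of the first session alone, neither was called (limma adjusted p = 0.293 and 0.322). Their differences in that fit were 1.65 and 0.85, and 8 of 22784 probes were called higher. Of the markers of other cells, some lists were also higher in Sham than in Naive rats by their medians and others were not. Neuronal genes had a median difference of 0.68 with 2 of 9 called higher, Slc17a7 (1.43) and Syt1 (1.36), and hippocampal markers a median of 0.58 with 1 of 8 called higher, Wfs1 (1.43). The astrocyte gene Gfap (2.02) and the microglial gene P2ry12 (1.05) were each the 1 of 8 called on their lists, where the medians were -0.11 and 0.36. Limma called none of the 6 endothelial and 6 thalamic markers, with 1 of each at an unadjusted p under 0.05. The part of other cells in the rise of the myelin genes was not tested.

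Between TBI and Naive rats none of the 9 genes was called, where 2.98% of all probes were called higher and 1.73% lower. At an unadjusted p under 0.05, limma had 2 of the 9, Cnp and Mal, and the methods' t-test had none at more than 1.2-fold. The median difference was -0.20. Mal had the largest difference, -1.06 (SE 0.42, limma adjusted p = 0.169), and its 95% interval ran from -1.99 to -0.13. Cnp had -0.54, with a 95% interval from -1.03 to -0.06. On the second slide, which held the TBI arrays and Naive 3, the median difference was -0.02. Both comparisons with Sham rest on the same pair of Sham arrays, and the fall from Sham to TBI and the rise from Naive to Sham share them.

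**Figure D2:**
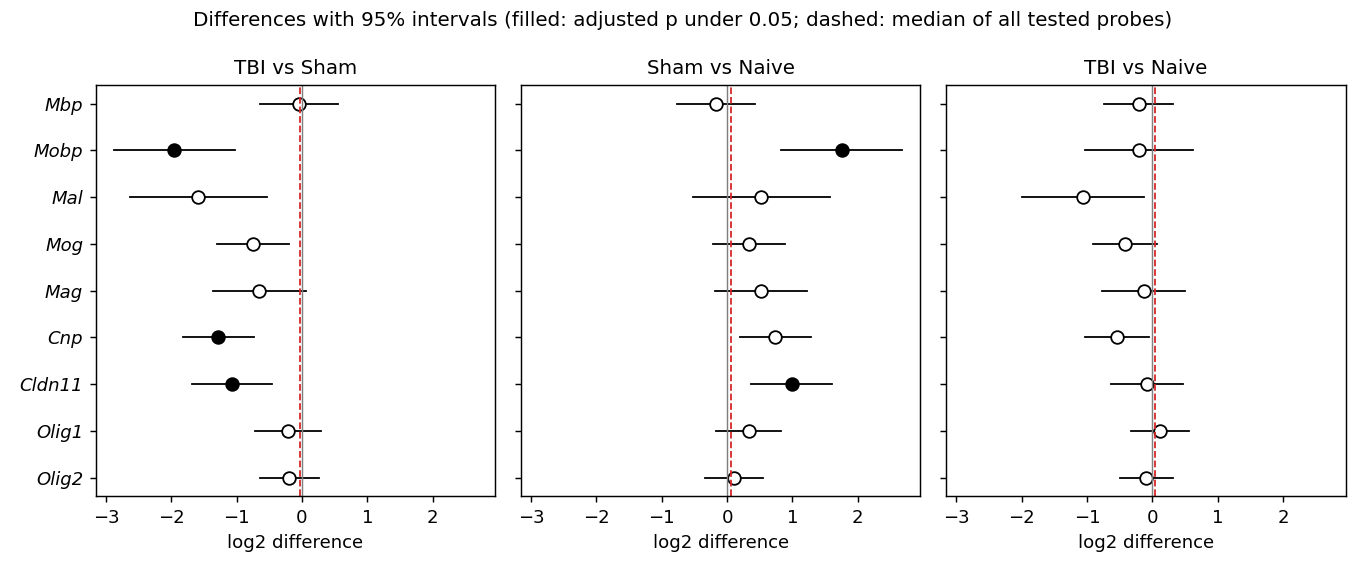
Log2 difference (horizontal axis) of each gene in TBI vs Sham, Sham vs Naive and TBI vs Naive, with 95% intervals, filled where the limma adjusted p was under 0.05, and with the median of all tested probes dashed. Mobp, Cnp and Cldn11 are filled to the left in TBI vs Sham, Mobp and Cldn11 are filled to the right in Sham vs Naive, and nothing is filled in TBI vs Naive.

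Rats of 1 group differed most in the TBI group. The median SD of the 9 genes was 0.47 in TBI rats, where that of all probes was 0.30, and in the other 5 groups it ran from 0.11 to 0.27. Mal (SD 1.104) and Mobp (SD 1.04) varied most among TBI rats, and 5.61% and 6.73% of all probes had a larger SD there. Olig2 varied least (SD 0.21). All 9 genes were above the group mean in TBI 1, by 0.58 on average, and all 9 were below it in TBI 3. The median of all probes in TBI 1 differed from the other TBI arrays by -0.07 after scaling. Before scaling, the reference level of TBI 1 was an intensity of 1421, between those of TBI 2 (1307) and TBI 3 (1622).

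Leaving out single rats moved the count of called genes, and that of all called probes with it. Without TBI 1, 6 of the 9 genes were called lower in TBI vs Sham, among them Mog (-0.91, limma adjusted p = 0.0314) and Mal (-2.21, limma adjusted p = 0.000721). Calls over all probes rose as well, to 2520 of 22806 lower from 1479 of 22799. In TBI vs Naive 3 genes were called lower, where 712 of 22816 probes were, against 394 of 22809 with all rats. Without TBI 2 or TBI 3, 1 gene was called in TBI vs Sham, where 561 and 315 of all probes were called lower. Without TBI 3 that gene was Cnp (-1.04, limma adjusted p = 0.0381). For Sham vs Naive, the count fell from 2 to 1 without Naive 2 and to 0 without Naive 1 or Naive 3. Of all probes, 1275, 893 and 690 were called higher in these runs, against 1496 with all rats. Without Sham 1 or Sham 2 a single Sham array was left and was assumed to vary like the arrays of the other groups. For those runs only the medians are used. The medians kept their sign in all these runs of both comparisons, from -0.95 to -0.56 for TBI vs Sham and from 0.29 to 0.56 for Sham vs Naive. In TBI vs Naive the median of -0.20 turned to 0.03 without TBI 3, with 6 of the 9 genes higher.

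The 9 genes moved together from rat to rat. Over the 16 arrays, the deviations of 2 genes from their group means had a median Pearson correlation of 0.547 across the 36 pairs, and all pairs were positive. Without the 3 TBI arrays the median was 0.34 and 31 of 36 pairs were positive. Mobp followed the mean of the other genes most closely (r = 0.935), then Cldn11 (r = 0.89), and Olig2 least (r = 0.401). The points of each correlation share array, depth and scaling, and the values are descriptive.

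**Figure D3:**
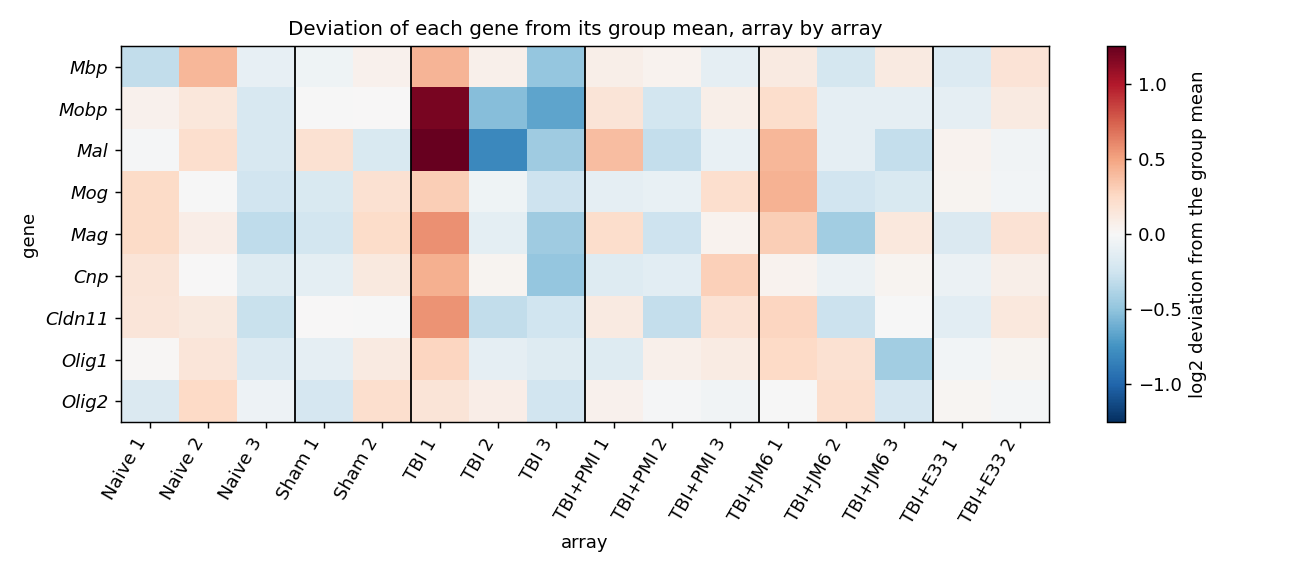
Deviation of each gene from its group mean (colour, log2 scale) on each array (columns) for the 9 genes (rows). TBI 1 is red in every row, with Mobp and Mal deepest, and TBI 3 is blue in every row.

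Among 19382 other genes, those whose deviations were most like the mean of the 9 included St6galnac3 (r = 0.963), S1pr5 (r = 0.938), Fa2h (r = 0.917), 3 entries without a gene symbol, Abca2 (r = 0.899), Mettl7a (r = 0.894) and Pnkd (r = 0.894), over 16 arrays. S1pr5 is a sphingosine phosphate receptor of mature oligodendrocytes and Fa2h the enzyme that hydroxylates the fatty acids of myelin lipids. Both were on the list of other myelin genes described next. Sox10, the lineage factor that acts with Olig2, ranked 45 (r = 0.834).

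Other genes of mature oligodendrocytes went the same way. Of 27 listed, 26 were measured, and 9 fell and none rose in TBI vs Sham, where 6.49% of all probes were called lower. The median difference of the list was -0.80. Gjb1, a gap junction protein of oligodendrocytes, was among the lowest (-1.44, limma adjusted p = 0.0132). The highest were Klk6 (0.79, limma adjusted p = 0.227) and Gpr37 (0.49, limma adjusted p = 0.399), which did not pass. In Sham vs Naive 4 of 25 rose and none fell, where 6.57% of all probes were called higher, with a list median of 0.55. In TBI vs Naive limma called none of 25, with 4 at an unadjusted p under 0.05. The count in TBI vs Sham was 14 lower and 1 higher without TBI 1, 2 lower without TBI 2, and 0 without TBI 3. Of all probes, 2520, 561 and 315 were called lower in these runs. The medians of these runs and of those without Sham 1 or Sham 2 ran from -1.02 to -0.57.

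Genes of oligodendrocyte precursors had no common direction. Of 14 listed and measured, 2 rose and none fell in TBI vs Sham, with a median of -0.01. Of all probes, 2.93% were called higher and 6.49% lower there. At an unadjusted p under 0.05 limma had 7 of the 14. Sox6, a transcription factor of precursors, had the highest fitted difference (limma adjusted p = 0.171). It was above background on 2 of 3 TBI arrays and on none of the Sham arrays. With the Sham arrays set no lower than the dimmest signal above background on the same array, it was 1.48-fold higher in TBI. The 2 that rose were Vcan (1.08, limma adjusted p = 0.0203) and Ptprz1 (0.83, limma adjusted p = 0.0475), a matrix proteoglycan and a receptor phosphatase that precursors share with astrocytes. The lowest were Zfp488 (-0.84) and Enpp6 (-0.77), and neither passed. Without TBI 1 the list had 2 higher and 4 lower, where 1554 of all probes were higher and 2520 lower. Without TBI 2 or TBI 3 it had none of either.

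Markers of other cells also differed between Sham and TBI. Of 9 neuronal genes 3 were lower in TBI vs Sham, where 6.49% of all probes were called lower. Their median was -0.71, and their summed signal ran from 15.5 to 20.5 in TBI and from 26.0 to 29.1 in Sham rats. Hippocampal markers had a median of -0.80, with 1 of 8 lower. Astrocyte genes had a median of -0.10 and limma called none of 8, with 2 at an unadjusted p under 0.05. Of 8 microglial genes, Tmem119 (-2.17, limma adjusted p = 0.00925) and P2ry12 (-1.41, limma adjusted p = 0.0130) fell and Itgam (1.403, limma adjusted p = 0.0149) rose, with a median of 0.09. Of 6 endothelial genes Cldn5 fell (-1.23, limma adjusted p = 0.0351), with a median of -0.29. The choroid plexus, which is attached to the hippocampal fimbria, was present in unequal amounts. The summed signal of its 6 measured markers was 123.4 in Sham 1, 4.92 in Sham 2 and between 0.196 and 3.55 in the TBI rats, and in the series it ran up to 153 in 1 TBI+PMI rat. The summed signal of 6 thalamic markers was lower in TBI (0.310 to 0.457) than in Sham rats (0.585 to 0.879) without overlap, and ran from 0.350 to 1.97 in Naive rats. Their median difference in TBI vs Sham was -0.59, and 1 of 6, Tnnt1, was called lower (-1.72, limma adjusted p = 0.0247). Of 4 markers of Schwann cells, which myelinate peripheral nerves, 2 were too dim to test. The part of dissection and cell makeup in the differences of the myelin genes was not tested.

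The probes of a gene did not always give the same size. Mobp had 3 probes, and those at chr8:125136405-125136464 and chr8:125143743-125143802 had TBI minus Sham differences of -0.86 and -0.79, neither of which passed (limma adjusted p = 0.141 and 0.321). With the probes of a gene averaged, Mobp had a difference of -1.2001 (limma adjusted p = 0.0741). The second Olig2 probe was lower in TBI than in Sham by a fitted -2.10 (SE 0.50, limma adjusted p = 0.0244), where the brightest Olig2 probe had -0.19. It was above background on 11 of 16 arrays and on none of the 3 TBI arrays. With the TBI arrays set no lower than the dimmest signal above background on the same array, it was 2.59-fold lower in TBI than in Sham rats. The second Mag probe had -0.27 and the second Mbp probe -0.43, and neither passed.

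All 14 probes had lower means in TBI than in Sham rats, and the 4 that were called lower were also the 4 richest in G and C. They held 51.7 to 55% G and C, and the other 10 held 30 to 48.3%. Over all tested probes with at least 50% G and C, 9.8% were called lower in TBI vs Sham, against 5.24% of those below 50%. In Sham vs Naive, 8.68% and 5.77% of these classes were called higher. With the G and C trend removed from each array, a step added after the data were seen, Mobp (-1.76, limma adjusted p = 0.0240), Cnp (-1.09, limma adjusted p = 0.0191) and the second Olig2 probe (-1.91, limma adjusted p = 0.0223) stayed below the threshold and Cldn11 did not (-0.92, limma adjusted p = 0.0698). The protocol names a pair of amplification kits without saying which rat had which, and the part of amplification was not tested.

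**Figure D4:**
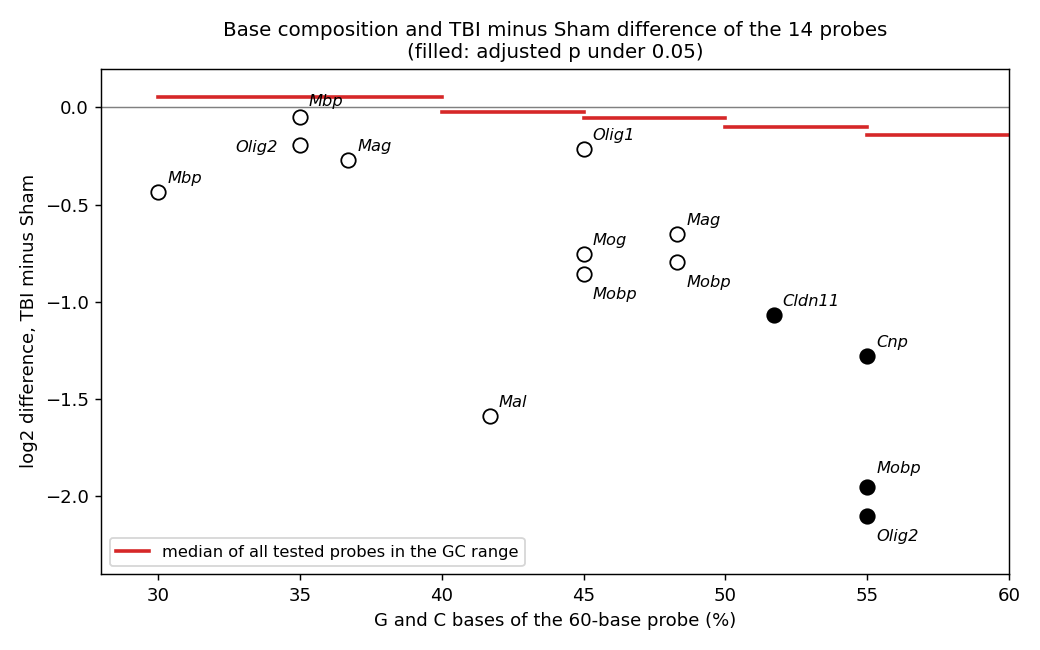
Share of G and C bases of each of the 14 probes in percent (horizontal axis) and its log2 difference in TBI minus Sham (vertical axis), filled where the limma adjusted p was under 0.05, with red bars for the median of all tested probes in a range of G and C. The 4 filled points lie between 51.7 and 55%, with differences from -1.06 to -2.10, while the red bars stay between 0.05 and -0.14.

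In injured rats given a drug, the myelin genes have to be read against a shift of the whole array. The median of all tested probes was higher than in TBI rats by 0.79 with PMI, 0.99 with JM6 and 1.08 with E33. Called higher were 3 of the 9 genes in TBI+PMI vs TBI, where 56.7% of all probes were, 4 in TBI+JM6 vs TBI, where 69.9% were, and 6 in TBI+E33 vs TBI, where 70.2% were. The medians of the 9 genes were 0.36, 0.43 and 0.66, which is -0.43, -0.56 and -0.41 relative to all probes. Only 3, 1 and 2 of the 9 genes were above the median of all probes. All 3 comparisons share the TBI arrays, TBI 1 among them.

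Mobp was high in all drug groups. It read 2.90, 2.51 and 2.81 with PMI, 2.93, 2.59 and 2.59 with JM6 and 2.61 and 2.83 with E33. All 8 arrays were above all 3 TBI arrays and below both Sham arrays, and the differences from TBI were 1.59, 1.55 and 1.57 (limma adjusted p = 0.00324, 0.00273 and 0.00508). Relative to all probes they were 0.80, 0.56 and 0.497. The other Mobp probes did not follow. In TBI+JM6 vs TBI they had differences of -0.65 and -0.38, and neither passed.

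Cnp read 2.11, 2.13 and 2.56 with PMI, 2.46, 2.34 and 2.45 with JM6 and 2.41 and 2.56 with E33, and Cldn11 read 1.45, 1.03 and 1.52, then 1.49, 0.95 and 1.21, then 1.33 and 1.59. Both were above every TBI array in all 3 drug groups and passed in each. Cnp differed from TBI by 0.75, 0.90 and 0.97, and Cldn11 by 1.099, 0.98 and 1.22. Relative to all probes, Cnp lay at -0.04, -0.09 and -0.10 and Cldn11 at 0.31, -0.01 and 0.15.

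Mog did not take part in the shift. It read 1.68, 1.71 and 2.01 with PMI, 1.82, 1.15 and 1.199 with JM6 and 1.89 and 1.82 with E33, all within or below the TBI range of 1.57 to 2.14. Its differences from TBI were -0.03, -0.44 and 0.03, which is -0.82, -1.44 and -1.05 relative to all probes. Mag, by its brightest probe, read 2.47, 1.99 and 2.29, then 2.23, 1.49 and 2.06, then 1.998 and 2.36. By that probe Mag overlapped with TBI in every group. Its differences from TBI were 0.27, -0.05 and 0.20, which is -0.52, -1.05 and -0.87 relative to all probes. The second Mag probe was above every TBI array in each drug group and passed in each. Its differences from TBI were 0.81, 0.64 and 0.80 with PMI, JM6 and E33 (limma adjusted p = 0.00574, 0.0164 and 0.00915). Relative to all probes these were 0.02, -0.36 and -0.28. Under quantile normalization Mog was called lower in TBI+JM6 vs TBI (-1.02, limma adjusted p = 0.0146), and it was the only one of the 9 genes called in any drug group vs TBI there. Of 22826 probes, 3045 were called lower and 3163 higher in TBI+JM6 vs TBI under that normalization.

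Mbp read 6.18, 6.14 and 5.99 with PMI, 6.23, 5.90 and 6.23 with JM6 and 6.21 and 6.55 with E33. By this brightest probe Mbp passed only with E33 (0.63, limma adjusted p = 0.0496), by a narrow margin. The second Mbp probe passed in all 3 drug groups and was above every TBI array there. Its differences from TBI were 1.37, 1.99 and 1.69 with PMI, JM6 and E33 (limma adjusted p = 0.00174, 9.51e-05 and 0.000694). Relative to all probes these were 0.58, 0.99 and 0.62. Mal read 2.01, 1.32 and 1.53, then 1.63, 1.09 and 0.91, then 1.48 and 1.40, and lay between the low and the high TBI arrays in every drug group.

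Olig1 read 1.72, 1.95 and 1.99 with PMI, 2.09, 2.03 and 1.40 with JM6 and 2.20 and 2.26 with E33, and passed with E33 only (0.61, limma adjusted p = 0.0276). Olig2, by its brightest probe, read -0.58, -0.64 and -0.67 with PMI, -0.29, -0.07 and -0.50 with JM6 and -0.04 and -0.08 with E33. All 8 arrays were above the TBI arrays, and the difference passed with JM6 (0.68, limma adjusted p = 0.00491) and E33 (0.91, limma adjusted p = 0.00175). Relative to all probes these were -0.31 and -0.17. The second Olig2 probe was 3.42-fold, 4.44-fold and 6.17-fold higher with PMI, JM6 and E33 than in TBI rats. Here too the TBI arrays were set no lower than their dimmest signal above background.

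**Figure D5:**
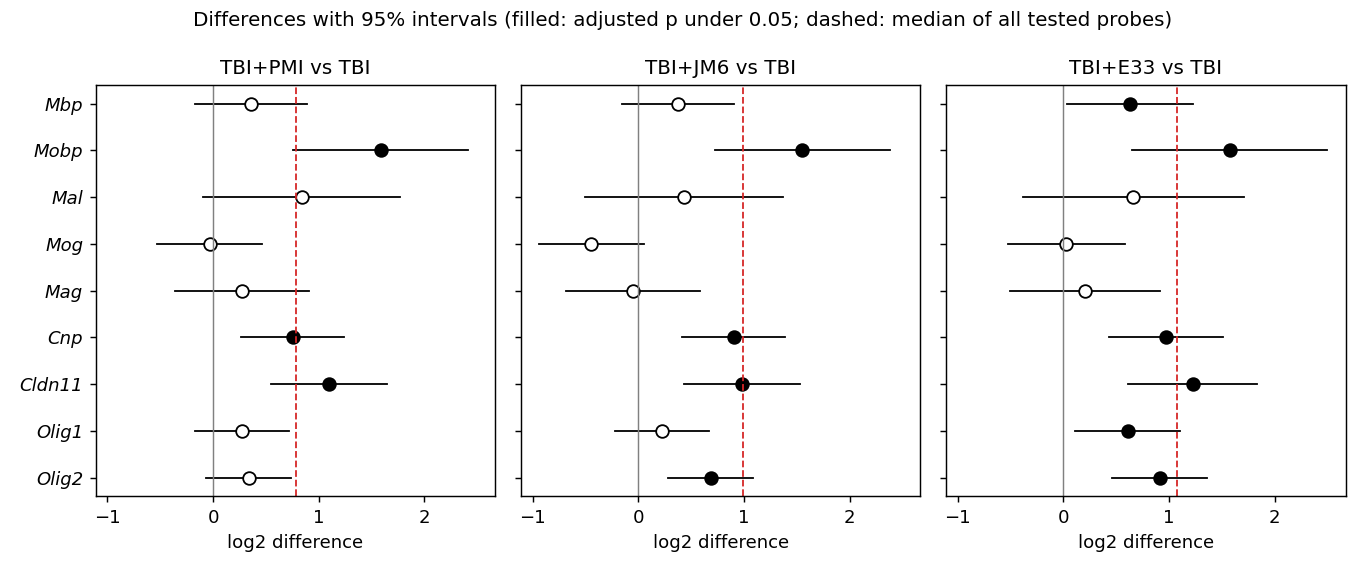
Log2 difference (horizontal axis) of each gene from TBI in TBI+PMI, TBI+JM6 and TBI+E33 rats, with 95% intervals, filled where the limma adjusted p was under 0.05, and with the median of all tested probes dashed. Most genes lie to the left of the dashed lines at 0.79, 0.99 and 1.08, Mog farthest, and Mobp lies to the right in all 3 panels.

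Of the 26 other mature oligodendrocyte genes, 12, 9 and 13 were called higher with PMI, JM6 and E33. Of all probes, 56.7%, 69.9% and 70.2% were called higher in these comparisons. The medians of the 26 genes were -0.22, -0.62 and -0.42 relative to all probes. In TBI+JM6 vs TBI their lowest were Ermn (-0.30) and Tspan2 (-0.27) and their highest measured in both groups Ugt8 (1.97), the enzyme that makes galactosylceramide, and Adamts4 (1.46), a matrix protease. Tmem125 was above background on none of the TBI arrays. With these set no lower than their dimmest signal above background, it was 2.05-fold higher with JM6. The precursor genes had 5, 7 and 8 of 14 called higher, against the same shares of all probes. Their medians were -0.29, -0.48 and -0.35 relative to all probes.

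Between the drug groups none of the 9 genes was called in TBI+JM6 vs TBI+PMI, TBI+E33 vs TBI+PMI or TBI+JM6 vs TBI+E33, where 0.0131%, 0.110% and 0.0175% of all probes were called. At an unadjusted p under 0.05 limma had 0, 1 and 0 of the 9 and the methods' t-test had 0, 1 and 0. The largest difference was that of Olig2 in TBI+E33 vs TBI+PMI, 0.57 (95% interval 0.12 to 1.02, limma adjusted p = 0.212), with the E33 arrays above all PMI arrays. For Mobp the 95% intervals were -0.86 to 0.79, -0.94 to 0.91 and -0.95 to 0.91 in the order given, so differences of nearly 2-fold in either direction were within them.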

How the data were processed

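Labelled RNA of 16 rats in 6 groups was hybridised to single-colour Agilent rat arrays, and 9 genes were analysed. The intensity of each spot, as deposited, was background subtracted and detrended by Agilent Feature Extraction 9.5.3.1 and not normalized between arrays. The authors' matrix, a ratio to the 75th percentile on a linear scale, was used as an alternative. Flagged outlier spots were dropped and 42877 spots averaged over 30367 probes. Arrays were scaled to the 75th percentile of the signals that exceeded background, followed by log2. A probe was tested if all arrays of any 1 group exceeded background (22827 probes), in a limma model without intercept (10 residual degrees of freedom), at a Benjamini-Hochberg adjusted p under 0.05. The model was tested on simulated data. R 4.3.3, limma 3.58.1 and matplotlib 3.10.9 were used.

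The members and lists were chosen with earlier results of these data known. Named were all 9 genes by the brightest probe, their other probes, the 2 highest and 2 lowest genes of a list, and the 10 genes most alike by Pearson correlation, of which 1 gene is not reported here by name though it counts in its list. Called genes of the marker lists and Ptprz1 were named after their values were seen. Rats of a group were taken as separate animals. The number of arrays limits the precision. Alternatives were normexp (offset 50), quantile normalization, the percentile over all probes, the authors' matrix, no filter, a filter on all arrays, the methods' t-test, the compared groups alone, slide and replicate blocks, the mean of probes, each rat left out, and removal of a trend on G and C. No annotation of exons or UTRs for rn4 was used here.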

Additional observations from a re-analysis of the deposited data

How the results depend on the processing

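Of the 9 genes, 3 were called lower in TBI vs Sham, where 1479 of 22799 probes were. The count was 2 under quantile normalization (968 of all probes called lower), 2 with the authors' matrix (922) and 2 with the G and C trend removed (1420). It was 0 with the normexp correction (1) and 0 with the compared groups alone (5). By the methods' t-test it was 1 (2053 of 22312 at any fold change), and 0 after its adjustment (1). With the slide as a fixed block in the first session it was 0 (28). That block links TBI and Sham only through the Naive arrays. Among probes above background on all arrays it was 5, where 1577 of 14295 were called lower. With the slide as a random block it was 5 (2548, consensus correlation -0.0871). Where few of all probes passed, a count of 0 says little about the 9 genes. For Sham vs Naive, 2 were called higher, where 1496 of 22784 probes were. The count was 1 under quantile normalization (750 of all probes called higher), the percentile over all probes (1393) and the authors' matrix (823). It was 1 with no filter (1051 of 30324), the compared groups alone (238) and the G and C correction (1160). It was 0 with normexp (13), the adjusted t-test (0), the slide as a fixed block (8) and the mean of probes (1090 of 20027). By the methods' t-test it was 3 (2716 of 22165 at any fold change). Mobp, Cnp, Cldn11, Mal, Mog and Mag were lower in TBI than in Sham under all 19 alternatives, Mbp under 14 and Olig1 and Olig2 under 18 each. The filters, the t-tests and the compared groups alone leave the differences as they were, so the same sign there was fixed in advance.

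Deviations of same-numbered arrays had a median correlation of 0.019, against -0.013 for arrays of different numbers, and 8 of 16 arrays correlated best with their own number. These values cannot decide whether replicate numbers pair the rats. With the replicate block, 3 genes were called in TBI vs Sham and 1 in Sham vs Naive. Leaving out 1 TBI or Naive rat at a time gave 1 to 6 called genes in TBI vs Sham, where 315 to 2520 of all probes were called lower. It gave 0 to 3 in TBI vs Naive and 0 to 1 in Sham vs Naive.

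The drug comparisons turned with the scaling. TBI+PMI vs TBI had 3 genes called higher, against 0 called under quantile normalization, the percentile over all probes, the authors' matrix or the adjusted t-test. Of all probes, 2274, 5428, 2298 and 8099 were called higher and 2103, 2737, 2049 and 6 lower there. It had 1 higher by the methods' t-test and 2 lower with the G and C correction, where 5675 of 22826 probes were called lower. TBI+JM6 vs TBI had 4 higher. It had 1 lower under quantile normalization, where 3045 of 22826 probes were called lower, and 1 lower with the authors' matrix (3046 of 22827). It had 2 lower with the percentile over all probes (3334 of 22826). With the G and C correction it had 4 lower (Mog, Mag, Mbp and Olig1), where 6689 of 22826 probes were. By the adjusted t-test 1 was higher, where 11790 of 22453 probes were. TBI+E33 vs TBI had 6 higher, against 0 called under quantile normalization and with the authors' matrix. Of all probes, 2376 and 2439 were called higher and 2282 and 2270 lower there. It had 1 lower with the percentile over all probes, where 2768 of 22823 probes were, and 2 lower with the G and C correction (6505). The unadjusted and adjusted t-test had 3 and 1 higher, where 10055 of 22559 probes were higher after adjustment. TBI+E33 vs TBI+PMI had 0, and 1 by the methods' t-test. In TBI+JM6 vs TBI, Olig2 turned to -0.0555 under quantile normalization, -0.10 with the percentile over all probes and -0.0466 in the authors' matrix. In TBI+E33 vs TBI the percentile over all probes gave -0.20 for Mbp, -0.81 for Mog and -0.22 for Olig1. With the G and C trend removed, the PMI differences were -0.11 for Cnp and -0.49 for Olig2. The JM6 ones were -0.61 for Mbp, -0.23 for Cnp, -0.16 for Cldn11, -0.89 for Olig1 and -0.30 for Olig2. The E33 ones were -0.48 for Mbp, -1.18 for Mog, -1.11 for Mag, -0.28 for Cnp, -0.0255 for Cldn11, -0.60 for Olig1 and -0.20 for Olig2. The median of all probes in these comparisons was -0.015 to -0.0024 under quantile normalization, -0.0038 to -0.0024 in the authors' matrix, 0.15 to 0.25 with the percentile over all probes and -0.14 to -0.10 with the G and C correction. No fixed slide block could be fitted to a drug group vs TBI, which share no session. The cause was not tested.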
